A study of Mus musculus with 12 samples.

Results

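Laminins are secreted proteins of basement membranes, and each is a trimer of an alpha, a beta and a gamma chain. The trimers polymerize into a sheet that nidogen joins to the collagen IV network and that integrins and dystroglycan hold at the cell surface. The trimer of Lama1, Lamb1 and Lamc1 is the main laminin of Reichert's membrane, the thick basement membrane that parietal endoderm lays down in the mouse embryo, and visceral endoderm also rests on a laminin-rich sheet. The genes described here are the 8 laminin chain genes Lama1, Lama2, Lama4 and Lama5 (alpha chains), Lamb1, Lamb2 and Lamb3 (beta chains) and Lamc1 (a gamma chain). They were taken by gene name, with every probe that carries the name, which gave 15 of the 45281 probes and 8 of the 29527 gene names on the array; Lamb1 stands there under its older name Lamb1-1.

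XEN cells are stem cells of the extraembryonic endoderm of the mouse blastocyst. All 12 samples came from 1 XEN line that carries an Afp::GFP transgene, in which GFP reports the visceral endoderm gene Afp, and all were grown in N2B27, a serum-free medium. The 4 groups hold 3 samples each: cells with no treatment, cells exposed to BMP4 (a growth factor of the TGF-beta family) and left unsorted, and GFP positive and GFP negative cells separated by flow cytometry after BMP4. How much BMP4 was added, and for how long, is not given in the sources used here. Expression was read on Illumina bead arrays as the mean bead signal of each probe. The labels do not say whether the 3 samples of a group were separate cultures or repeat extractions, so p-values measure the spread between these samples.

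Between 13872 and 14737 probes were detected on the unsorted arrays (detection p under 0.01) and between 13105 and 13745 on the sorted ones. The sorted arrays stood apart, with a median signal of 22.6 to 32.4 against 53.4 to 60.9, so that sorting and any difference in array handling cannot be told apart in a comparison of sorted with unsorted cells. All 7 extraembryonic endoderm markers (Gata4, Gata6, Sox17, Sox7, Foxa2, Dab2 and Pdgfra) were detected on all arrays of every group, while the 6 fibroblast markers and Pou5f1 and Nanog of pluripotent cells were detected on none. Afp, the gene behind the sort, had a normalized log2 signal of 9.58 ± 0.17 (SD, n = 3) in GFP positive and 7.35 ± 0.13 (SD, n = 3) in GFP negative cells. Its level follows the sort labels, with a difference of 2.23 ± 0.17 (SE; adjusted p = 6.30e-06, limma). RNA came from whole populations, so fewer cells of a type and less RNA per cell cannot be told apart in any value below.

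Of the 8 chain genes, 6 passed the filter on dim probes (detection p under 0.01 on at least 3 arrays), with 7 of their probes. Lama2, the alpha chain of the basement membrane of muscle and nerve, had 3 probes, and 1 of their 36 values was detected, on 1 GFP negative array at a detection p of 0.00962. Lama4, the alpha chain best known from blood vessels, had 5 probes, and none of their 60 values was detected, the lowest detection p being 0.0737. The deposited signals of Lama4 ran from 40.8 to 66.7 on the unsorted and from 10.7 to 43.8 on the sorted arrays, a step also seen in the median of the whole array. Neither gene entered a comparison, and an array with these probes cannot show a change below its background.

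**Figure D1:**
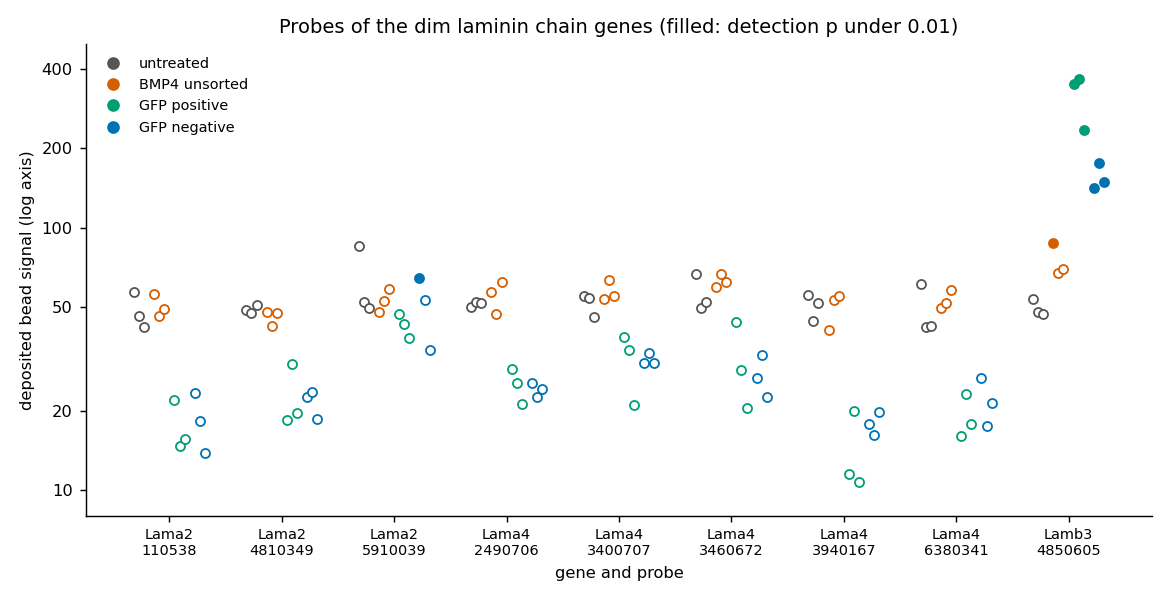
Deposited bead signal (log axis) of each probe of Lama2, Lama4 and Lamb3 on the 12 arrays, 1 point an array, coloured by group and filled where the detection p was under 0.01. The Lama2 and Lama4 probes show unfilled points apart from 1 of Lama2, and the Lamb3 probe is filled on all 6 sorted arrays and on 1 BMP4 array.

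The 3 chains of the parietal endoderm trimer are described first. Lama1, the alpha chain that binds integrins and dystroglycan through its globular end, was among the brightest probes of the array in untreated cells, where only 44 to 58 of the 45281 probes gave a higher signal. Its normalized log2 signal was 14.50, 14.58 and 14.60 in the untreated samples and 13.23, 13.28 and 13.45 in the unsorted BMP4 samples. It was 13.59, 13.63 and 13.61 in GFP positive cells and 13.59, 13.57 and 13.69 in GFP negative cells. Every untreated array lay above every array of the other groups, and the BMP4 arrays lay below both sorted groups. The drop after BMP4 was 2.36-fold in unsorted cells, or -1.24 ± 0.07 on the log2 scale (SE; adjusted p = 8.97e-09, limma), and after it 207 to 252 probes were brighter.

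Lamb1, the beta chain of that trimer, read 11.39, 11.52 and 11.52 in untreated cells and 10.21, 10.06 and 10.62 after BMP4. In the sorted cells it read 9.72, 9.54 and 9.59 (GFP positive) and 9.80, 9.78 and 10.09 (GFP negative). The untreated arrays again lay above all others, but GFP negative replicate 3 overlapped the unsorted BMP4 arrays. The fall after BMP4 was 2.26-fold, with a log2 difference of -1.18 ± 0.13 (SE; adjusted p = 3.65e-06, limma).

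Lamc1, the gamma chain that carries the nidogen binding site, had 2 probes. The probe that stands for the gene, 5050427, read 14.34, 14.49 and 14.47 in untreated cells and 13.15, 13.10 and 13.24 after BMP4. It read 12.79, 12.97 and 12.93 in GFP positive and 12.78, 12.85 and 12.95 in GFP negative cells. Here the groups formed 3 levels, with untreated cells highest, BMP4 cells in the middle and both sorted groups lowest and overlapping each other. The fall after BMP4 was 2.41-fold, or -1.27 ± 0.08 (SE; adjusted p = 1.34e-08, limma), and the other probe, 4900110, gave -1.29. That other probe put the sorted groups level with the BMP4 cells, at 12.97, 12.97 and 13.08 in BMP4 cells, 12.99, 13.01 and 12.96 in GFP positive cells and 13.00, 13.02 and 13.14 in GFP negative cells.

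The remaining chains behaved differently. Lamb2, the beta chain that replaces Lamb1 at neuromuscular and kidney basement membranes, read 9.08, 9.57 and 9.62 in untreated cells and 9.53, 9.40 and 9.26 after BMP4. In sorted cells it read 8.85, 8.68 and 8.86 (GFP positive) and 8.48, 8.42 and 8.57 (GFP negative). The untreated and BMP4 arrays overlapped, and every sorted array lay below every unsorted one. The difference after BMP4, -0.03 ± 0.13 (SE; adjusted p = 0.860, limma), was smaller than the spread of the untreated samples (SD 0.30, n = 3), in which replicate 1 was the low value, and its sign turned with single arrays left out, from -0.20 without untreated replicate 1 to 0.072 without untreated replicate 3.

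Lama5, the alpha chain that takes the place of Lama1 in many later epithelia, ran the other way. It read 7.55, 7.61 and 7.68 in untreated cells and 8.33, 8.16 and 8.23 after BMP4. In GFP positive cells it read 8.73, 8.90 and 8.83, and in GFP negative cells 8.69, 8.78 and 8.79. No array of untreated cells overlapped the BMP4 group, and no unsorted array overlapped the sorted ones. Lama5 rose 1.55-fold after BMP4, by 0.63 ± 0.07 (SE; adjusted p = 7.43e-06, limma).

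Lamb3 is the beta chain of the laminin of epithelial anchoring complexes. Its single probe was detected on none of the untreated arrays, where its deposited signal was 53.5, 47.7 and 46.9, and on 1 of the 3 BMP4 arrays, where the signal was 87.0, 67.3 and 69.3. It was detected on all sorted arrays, at a deposited signal of 350.6, 366.7 and 235.5 in GFP positive and 141.6, 175.5 and 149.1 in GFP negative cells. The normalized log2 signals behind the tests were 4.54, 4.53 and 4.53 (untreated), 5.65, 4.98 and 5.0 (BMP4), 8.30, 8.37 and 8.39 (GFP positive) and 7.14, 7.36 and 7.38 (GFP negative). The 4 groups did not overlap, and Lamb3 passed the filter only through its sorted arrays. The difference after BMP4 in unsorted cells was 0.67 ± 0.14 on the log2 scale (SE; adjusted p = 0.00114, limma). No fold is given for it because both means lay under the lowest level at which probes were detected, and the difference was 0.32 with a larger offset of 50.

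**Figure D2:**
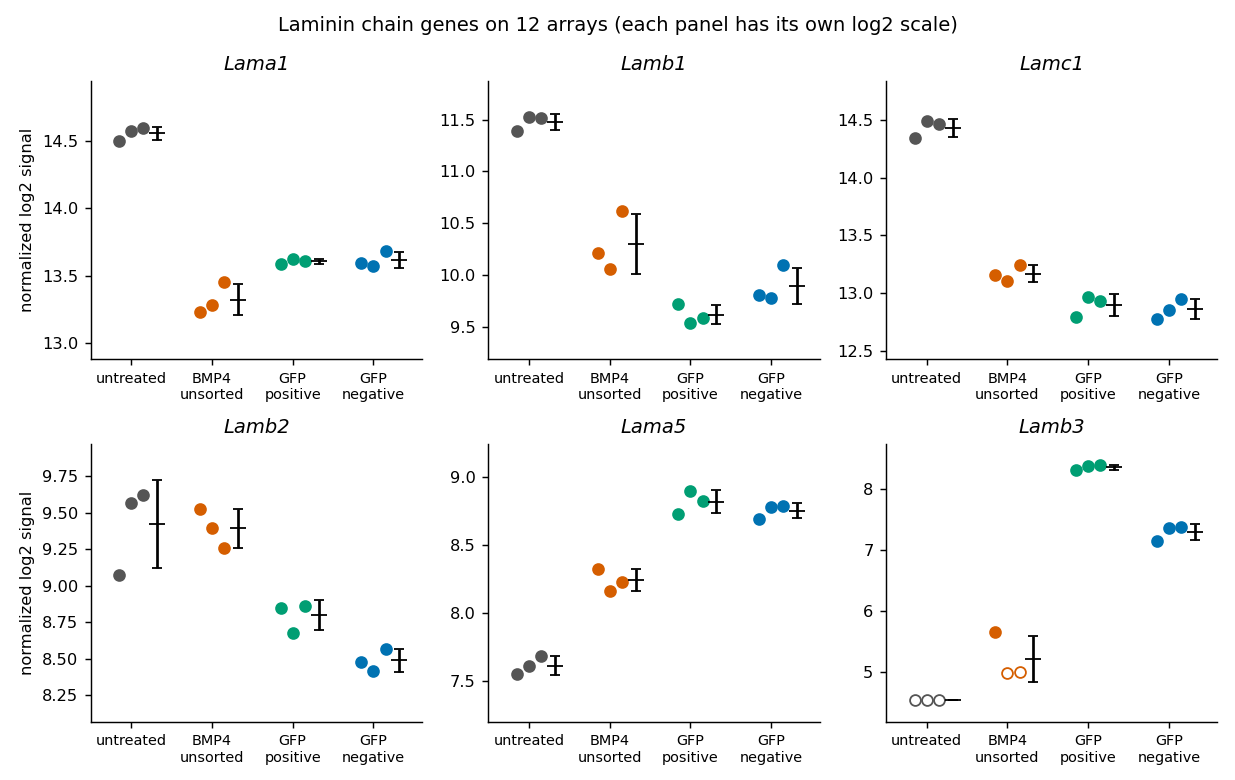
Normalized log2 signal (vertical axis, a scale of its own in each panel) of the 6 measured laminin chain genes in the 4 groups, 1 point an array, with the mean and SD of each group (n = 3) beside the points and open points where the probe was not detected. Lama1, Lamb1 and Lamc1 are highest in untreated cells, Lama5 and Lamb3 are lowest there, and Lamb2 separates the sorted from the unsorted arrays.

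In unsorted cells the test therefore called 3 of the 6 measured chain genes lower (Lama1, Lamb1 and Lamc1) and 2 higher (Lama5 and Lamb3) after BMP4. Of these, Lamb3 passed the filter only through its sorted arrays. It was detected on 1 of the 3 BMP4 arrays and on no untreated array, so its call here rests on values near background. BMP4 changed much of the measured transcriptome, with 58.9% of the 10597 genes called, 28.7% lower and 30.2% higher, so being called sets no gene apart. Without overlap between the groups were 5 of the 6 chain genes and 61.3% of all genes. The median log2 difference was -0.60 over the 6 genes and 0.03 over all genes, and each of the 3 chains that fell did so by more than 1 on the log2 scale, as did 5.81% of all genes.

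The sorted fractions asked whether cells with and without the Afp reporter differ after BMP4. Lamb3 was higher in GFP positive than in GFP negative cells, by 2.09-fold or 1.06 ± 0.14 on the log2 scale (SE; adjusted p = 0.000679, limma), and all 3 GFP positive arrays lay above all 3 GFP negative ones. It was the only called gene of the 6, beside 5.39% of all genes called (3.07% higher and 2.32% lower), and 0.330% of all genes had a larger absolute difference. The other 5 genes did not pass the test. Lama1 differed by -0.01 ± 0.07 (SE; adjusted p = 0.956, limma), Lama5 by 0.07 ± 0.07 (SE; adjusted p = 0.704, limma) and Lamc1 by 0.04 ± 0.08 (SE; adjusted p = 0.850, limma). The signs of Lama1 and Lamc1 turned under some settings, and the second probe of Lamc1 gave -0.068.

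The pair of beta chains Lamb1 and Lamb2 leaned in opposite directions between the fractions, and each left the 2 groups without overlap. Lamb1 was at 9.62 ± 0.09 in GFP positive and 9.89 ± 0.17 in GFP negative cells (SD, n = 3; adjusted p = 0.269, limma). Lamb2 was at 8.80 ± 0.10 and 8.49 ± 0.08 (SD, n = 3; adjusted p = 0.206, limma). Absence of overlap occurred in 3 of the 6 genes and in 27.4% of all genes. When the sorted arrays were normalized without the unsorted ones, an alternative chosen after seeing the data, Lamb2 differed by 0.32 with an adjusted p of 0.0494 (limma), which made the count of genes called higher 2.

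Both fractions were also set against untreated cells, with which they differ by BMP4, by sorting and by array background together. These comparisons share their untreated samples with each other and with the unsorted BMP4 comparison. The chains of the parietal trimer were lower in both. In GFP positive cells Lama1 fell by 0.95, Lamb1 fell by 1.86 and Lamc1 fell by 1.54 on the log2 scale (adjusted p = 5.40e-08, 1.83e-08 and 8.29e-10, limma). In GFP negative cells Lama1 fell by 0.94, Lamb1 fell by 1.58 and Lamc1 fell by 1.57 (adjusted p = 6.03e-08, 9.20e-08 and 6.62e-10, limma). Their SE is that given for each gene above.

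Lamb2 was lower too, by -0.62 ± 0.13 in GFP positive and -0.93 ± 0.13 in GFP negative cells (SE; adjusted p = 0.000540 and 1.52e-05, limma). Lama5 was higher, by 1.21 ± 0.07 and 1.14 ± 0.07 (SE; adjusted p = 5.31e-09 and 9.44e-09, limma), which is 2.31-fold and 2.21-fold. Lamb3, undetected in untreated cells, was at least 7.34-fold higher in GFP positive and at least 3.52-fold higher in GFP negative cells (adjusted p = 3.89e-11 and 9.91e-10, limma). These bounds set the untreated arrays at the lowest normalized signal of any detected probe and hold for the background correction and offset used. The fitted log2 differences, which are no bounds, were 2.66 and 1.74 with an offset of 50 and 2.86 and 1.95 with no background correction, smaller than the 3.82 and 2.76 of the setting used. All 6 genes were thus called in both comparisons, 2 higher and 4 lower. Lamb3 passed the filter only through the sorted arrays, so its calls and p-values here are no separate evidence of a rise. The background was 73.7% of all genes called for GFP positive cells (37.7% higher, 35.9% lower) and 74.7% for GFP negative cells (38.5% higher, 36.2% lower), so that the number called says little about these genes. Nor does the lack of overlap, seen in 6 of the 6 genes in each comparison and in 76.8% and 77.6% of all genes.

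Sorted cells, taken as the mean of both fractions, were also compared with the unsorted BMP4 cells; the labels do not say whether they came from the same cultures. Lamb3 was called higher (adjusted p = 1.01e-09, limma), with every sorted array above every unsorted one. The size of its difference is not given, since the unsorted mean lay under the detection level and 1 of 3 unsorted BMP4 arrays detected it. Because Lamb3 passed the filter only through the sorted arrays, this call is no separate evidence of a rise. Lama5 was higher by 0.55 ± 0.06 (SE; adjusted p = 4.65e-06, limma; 0.36 under scale normalization), and Lamb2 was lower, at -0.75 ± 0.11 (SE; adjusted p = 3.74e-05, limma). Lamb1 was lower at -0.54 ± 0.11 (SE; adjusted p = 0.000648, limma), with overlapping arrays. Lama1 was 0.29 ± 0.06 higher (SE; adjusted p = 0.00109, limma), a call that was lost under scale normalization (0.13, adjusted p = 0.244, limma). Lamc1 was 0.29 lower by its main probe (-0.29 ± 0.07, SE; adjusted p = 0.00181, limma) and level by the other (0.015, adjusted p = 0.834, limma), and the mean of both probes lost the call (-0.14, adjusted p = 0.0523, limma).

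In all, 3 chain genes were called higher and 3 lower in sorted cells, beside 34.8% and 35.4% of all genes (70.1% together), and 5 of the 6 genes and 59.5% of all genes showed no overlap. The unsorted BMP4 arrays did not lie between the fractions: Lamb3, Lama5 and Lama1 were above them in both fractions, and Lamb2 and, by its main probe, Lamc1 were below them in both. The lower array background moved with these differences, and its part in them was not tested.

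**Figure D3:**
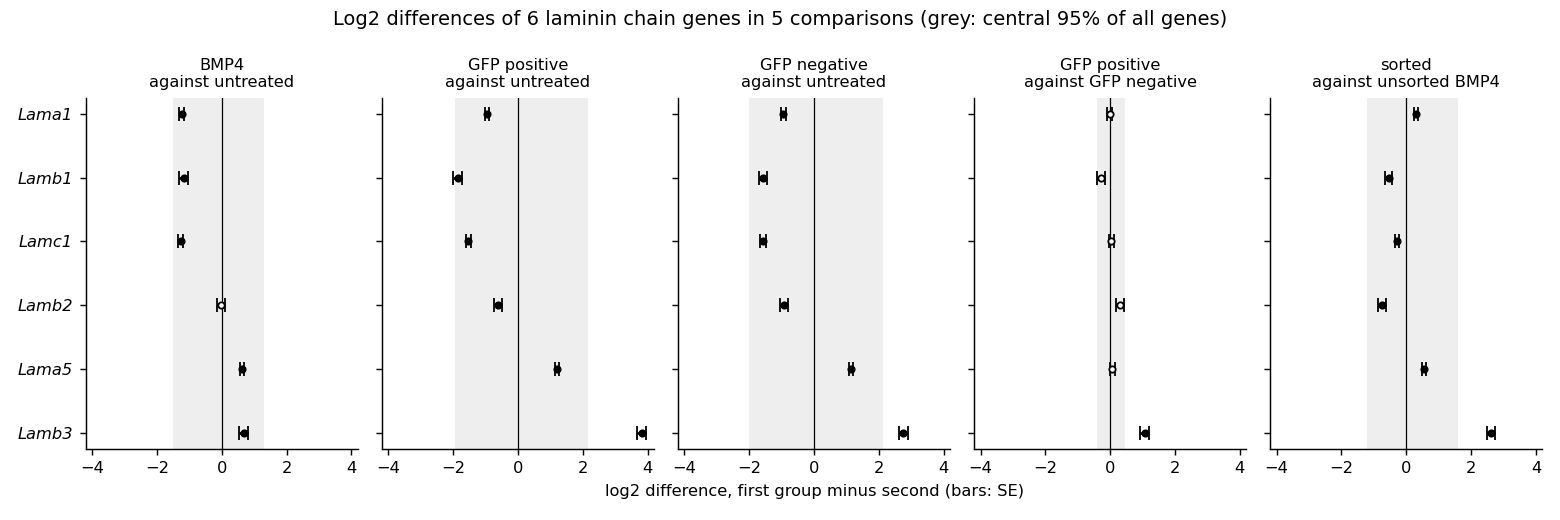
Log2 difference (horizontal axis, first group minus second) of the 6 measured chain genes in 5 comparisons, with bars for the SE, filled points for an adjusted p under 0.05 and a grey band for the central 95% of all genes. Lama1, Lamb1 and Lamc1 lie left of 0 and Lama5 and Lamb3 right of it in the 3 comparisons with untreated cells, and only Lamb3 is filled between the sorted fractions; the Lamb3 points against untreated or unsorted BMP4 cells are fitted values against a group at background.

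The order of the groups by level differed between chains. For Lama1 the order was untreated, then both sorted groups, which did not differ beyond their spread, then BMP4 unsorted. For Lamb1 it was untreated, BMP4 unsorted, GFP negative, GFP positive, of which the last neighbours did not pass the test. Lama5 and Lamb3 were ordered from untreated through BMP4 to the sorted groups, and of the 2 only Lamb3 separated the fractions. For Lamb2 the untreated and BMP4 groups were level and above both fractions.

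The balance between the trimer's chains was followed within each array, where a ratio of the same probes cancels the overall brightness. A ratio does not cancel a response that differs between bright and dim probes, which was not tested. In untreated cells the deposited signal was 23591 to 23803.4 for Lama1 and 2603.9 to 3077 for Lamb1. The brightest probe of each untreated array gave 32174.5 to 34053.5. After BMP4 in unsorted cells the log2 ratio of Lamb1 to Lama1 moved by 0.06 from its untreated mean and that of Lamc1 to Lama1 moved by -0.03, with overlapping groups (exact permutation p = 0.7 and 0.6, two-sided, n = 3 against 3). The falls of the 3 chains thus differed by less than the spread between BMP4 arrays (SD 0.19 and 0.069, n = 3). In the sorted cells Lamb1 dropped further than Lama1, by -0.91 in GFP positive and -0.64 in GFP negative cells, and Lamc1 did so by -0.58 and -0.63. None of these sorted values overlapped the untreated ones, and each had the exact permutation p of 0.1, the smallest that 3 against 3 samples allow (0.18 after adjustment over 9 such ratios). The Lamc1 ratios rest on probe 5050427, which differed from untreated cells by -1.54 (GFP positive) and -1.57 (GFP negative). The other Lamc1 probe, 4900110, differed by -1.30 and -1.24, so the Lamc1 ratio changes in sorted cells are smaller by that probe.

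The mean profile of Lama1, Lamb1 and Lamc1 over the 12 arrays, each centred on its own mean, was compared with every other gene by the root mean square distance on the log2 scale. The nearest were Gdf9 (0.0816), Ppic (0.0892), Ctns (0.0910), Dgkh (0.0987) and Slc29a1 (0.0991), against a median of 0.646 over the 10591 genes that are no chain gene. Lamc1 itself lay at 0.0943, Lamb1 at 0.198 and Lama1 at 0.236 from the mean they form. Between 3 and 239 other genes were nearer to it than each of these chains, so the common profile of high untreated and low BMP4 values is shared by many genes.

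**Figure D4:**
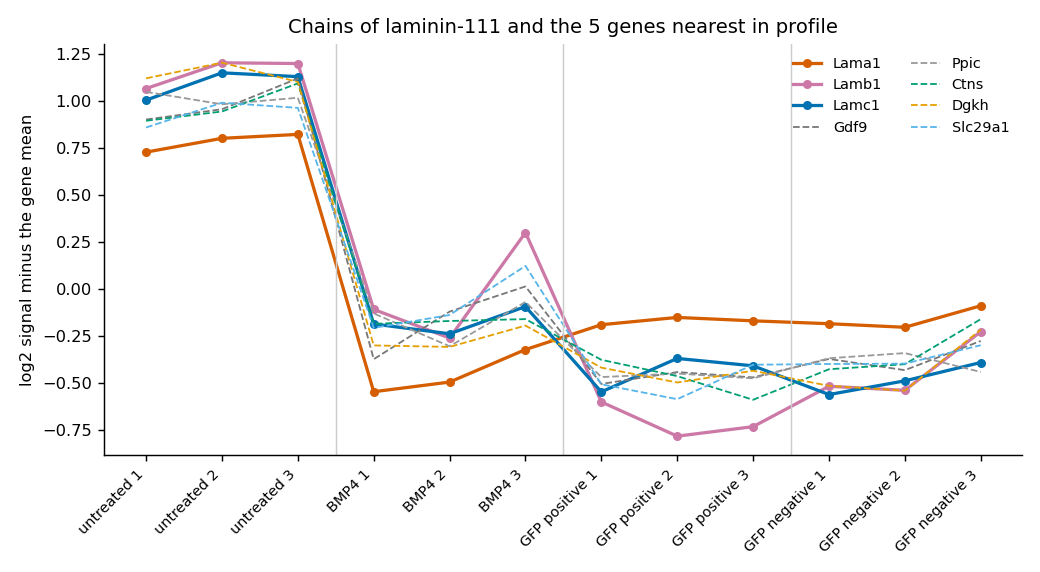
Log2 signal minus the gene's own mean (vertical axis) on the 12 arrays for Lama1, Lamb1 and Lamc1 (solid lines) and the 5 other genes nearest to their mean profile (dashed lines). All 8 lines drop between untreated and BMP4 cells, and Lama1 alone of the 3 chains is higher in sorted than in BMP4 cells.

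Promoter sequences are shown for the 3 chain genes that represent the falling, the rising and the sort-separated pattern. They come from RefSeq on GRCm38.p6 and run from 250 bases before to 50 bases after the annotated start, on the gene's strand. The table matched 5 of the 8 genes with 6 windows. Capitals mark the GC box GGGCGG, the GATA motif AGATAA, the TATA box TATAAA and the BMP SMAD motif GGCGCC on either strand, and no bases of different motifs overlap. Lamb1 lies at chr12:31265043-31265342 on the plus strand, Lama5 at chr2:180225810-180226109 on the minus strand, and the Lamb3 window shown at chr1:193301744-193302043 on the plus strand.
Lamb1: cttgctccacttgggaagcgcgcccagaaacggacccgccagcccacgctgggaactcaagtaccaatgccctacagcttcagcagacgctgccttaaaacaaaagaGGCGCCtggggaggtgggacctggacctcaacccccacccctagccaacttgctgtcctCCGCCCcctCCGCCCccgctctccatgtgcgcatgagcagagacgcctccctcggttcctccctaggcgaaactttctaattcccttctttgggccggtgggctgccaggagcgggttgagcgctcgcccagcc
Lama5: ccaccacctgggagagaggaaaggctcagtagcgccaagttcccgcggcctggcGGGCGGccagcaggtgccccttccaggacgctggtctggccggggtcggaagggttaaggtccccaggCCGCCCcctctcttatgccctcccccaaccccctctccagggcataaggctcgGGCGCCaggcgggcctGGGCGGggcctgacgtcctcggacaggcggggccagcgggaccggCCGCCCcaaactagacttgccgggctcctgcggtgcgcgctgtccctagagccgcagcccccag
Lamb3: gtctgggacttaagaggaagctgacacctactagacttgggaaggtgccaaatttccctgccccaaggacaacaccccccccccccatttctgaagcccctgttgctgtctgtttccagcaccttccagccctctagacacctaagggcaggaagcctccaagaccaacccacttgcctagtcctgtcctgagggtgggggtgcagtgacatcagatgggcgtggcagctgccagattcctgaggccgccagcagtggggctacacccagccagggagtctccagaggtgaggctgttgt

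The Lamb1 window holds 2 GC boxes and 1 GGCGCC, and the Lama5 window holds 4 GC boxes and 1 GGCGCC. The Lamb3 window holds none of the 4 motifs. Its GC content is 59.3%, against 63.7% for Lamb1 and 72.7% for Lama5. Among 32851 promoter windows of the same length GGGCGG is in 35.7%, GGCGCC in 11.9%, TATAAA in 13.6% and AGATAA in 11.2%. Lamb1, which fell, and Lama5, which rose, thus hold the same kinds of motif. Such matches are letters in a window and say nothing of binding.

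Laminin's partners in the basement membrane were taken as a list of 15 genes, of which 11 were measured. After BMP4 5 of them fell and 2 rose, a number called close to the 58.9% of all genes (28.7% lower, 30.2% higher), with a median log2 difference of -0.28 against 0.03 over all genes. Nid1, the nidogen that links the Lamc1 arm to collagen IV, fell by 2.80 on the log2 scale, from 13.79 ± 0.08 to 10.99 ± 0.31 (SD, n = 3; adjusted p = 7.31e-10, limma), and its other probe differed by -1.83. Its relative Nid2 fell by 0.68 (SE 0.09; adjusted p = 3.48e-05, limma). Agrn, the heparan sulfate proteoglycan agrin that binds laminin and dystroglycan, rose by 1.65 (SE 0.09; adjusted p = 2.33e-09, limma). Fbln1, a fibulin that binds laminin and nidogen, was not detected in untreated cells and was at least 27.6-fold higher after BMP4 (adjusted p = 1.63e-13, limma), and its 5 kept probes ranged from 0.18 to 5.54. Col4a1, a chain of the collagen IV network, differed by 0.18 ± 0.08 (SE; adjusted p = 0.0785, limma).

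Between the fractions, 2 of the 11 partner genes were called higher in GFP positive cells and 1 lower, beside 3.07% and 2.32% of all genes. Fbln2, another fibulin, was 0.75 ± 0.09 higher and Ntn4, a netrin that binds laminin gamma chains, was 0.52 ± 0.08 higher on the log2 scale (SE; adjusted p = 0.000284 and 0.00112, limma). Both were dim in GFP negative cells, at 5.94 for Fbln2 and 5.81 for Ntn4, which 2 of the 3 arrays detected. The lowest detected signals on those arrays were 5.68 to 5.79. Fbln2 was detected on no unsorted array and passed the filter only through the sorted ones. Nid1 was lower, at -0.53 ± 0.13 (SE; adjusted p = 0.0311, limma). The count of partner genes called lower was 0 without GFP positive replicate 1, 2 or 3 and without GFP negative replicate 2 or 3, and also with no detection filter or with the mean of each gene's kept probes. Col4a1 differed by -0.02 ± 0.08 (SE; adjusted p = 0.927, limma).

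Of 11 listed laminin receptor genes 8 were measured, and after BMP4 4 fell and 1 rose, with a median of -0.27 against 0.03 over all genes. The number called is again close to the 58.9% of all genes. Itga3 and Itga6, the alpha subunits of the main laminin-binding integrins, fell by 1.13 (SE 0.08) and fell by 1.11 (SE 0.16) on the log2 scale (adjusted p = 3.93e-08 and 4.60e-05, limma). The syndecan Sdc4 fell by 0.83 (SE 0.09; adjusted p = 5.78e-06, limma). Dag1, which encodes dystroglycan, fell by 0.36 (SE 0.13; adjusted p = 0.0268, limma) with 1 probe and differed by 0.01 with the other. Against untreated cells Dag1 was higher in both fractions, by 0.88 in GFP positive and 0.60 in GFP negative cells (adjusted p = 3.07e-05 and 0.000774, limma). Its 2 probes gave 0.88 and 0.91 in GFP positive and 0.60 and 0.75 in GFP negative cells. In these comparisons 73.7% and 74.7% of all genes were called, and sorting differs too. Itgb1, the beta subunit that Itga3 and Itga6 share, differed by -0.19 ± 0.11 (SE; adjusted p = 0.166, limma).

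Itgb4 was the receptor gene that rose. It encodes the integrin subunit that binds the Lamb3-containing laminin in hemidesmosomes together with Itga6. Itgb4 rose by 0.48 after BMP4 (SE 0.12; adjusted p = 0.00452, limma); its other probe gave 0.28, and 2 of the 3 untreated arrays detected it. It was also the only receptor gene called between the fractions, where 5.39% of all genes were called, at 7.19 ± 0.08 in GFP positive and 6.20 ± 0.20 in GFP negative cells (SD, n = 3), a difference of 0.99 ± 0.12 (SE; adjusted p = 0.000398, limma) that its 2 probes put at 0.78 and 0.99. Itga6 differed by -0.25 ± 0.16 there (SE; adjusted p = 0.447, limma) and was detected on 1 GFP positive and 2 GFP negative arrays. Dag1 and Itgb1 differed by 0.28 ± 0.13 and -0.12 ± 0.11 (SE; adjusted p = 0.272 and 0.643, limma).

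Dystroglycan binds laminin through a sugar chain that a set of glycosyltransferases builds, and 14 of 17 listed genes of that set were measured. After BMP4 6 fell and 3 rose, beside 58.9% of all genes called, with a median of -0.15 against 0.03 over all genes. Large2, an enzyme that extends the laminin-binding sugar itself, rose by 1.49 on the log2 scale (SE 0.07; adjusted p = 1.74e-09, limma). Pomgnt2, which acts early on that chain, rose by 1.06 (SE 0.11; adjusted p = 1.53e-06, limma).

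**Figure D5:**
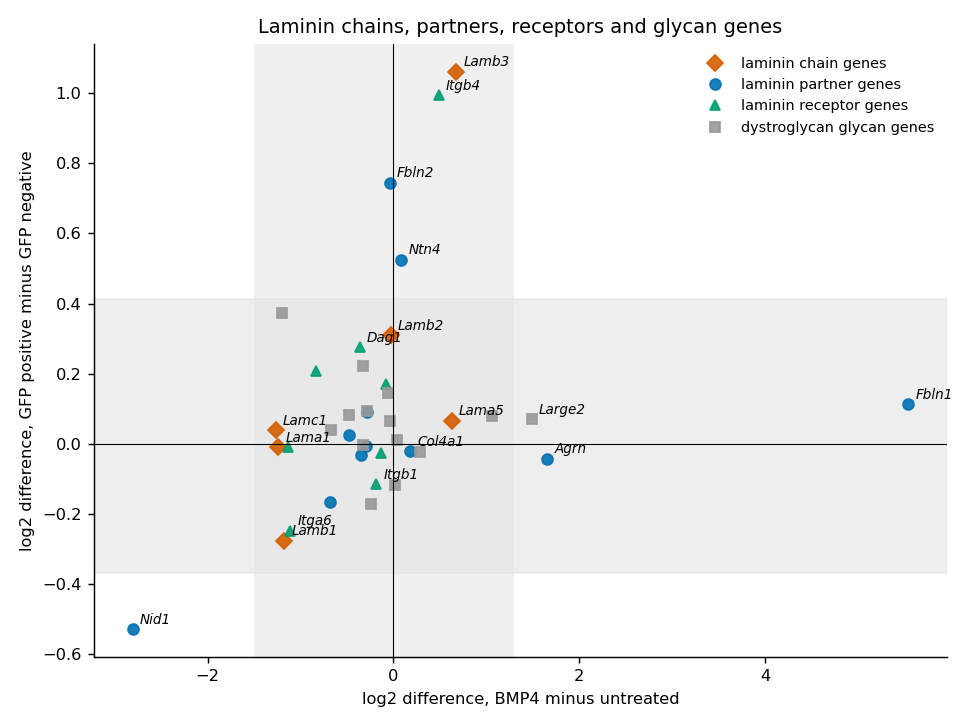
Log2 difference after BMP4 in unsorted cells (horizontal axis) against that between GFP positive and GFP negative cells (vertical axis), 1 point for each measured chain, partner, receptor and glycan gene, with grey bands for the central 95% of all genes. Lamb3 and Itgb4 lie highest, Nid1 lies lowest and far left, and Fbln1, whose fitted value is against an undetected group, lies far right.

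Endoderm markers differed between the groups too. The summed normalized signal (linear scale) of the parietal endoderm markers Thbd, Sparc, Nid1, Pth1r and Snai1 ranged from 44596 to 49941 in untreated, 29638 to 30984 in BMP4, 16390 to 18332 in GFP positive and 15665 to 18118 in GFP negative samples. That of the 8 visceral endoderm markers ranged from 6714 to 6971, 10809 to 11828, 17792 to 18736 and 18460 to 20466 in the same order. These sums are carried by bright genes, and single markers went both ways after BMP4: of the parietal markers Nid1, Thbd and Sparc were called lower but Pth1r and Snai1 higher, by 0.34 and 0.68 on the log2 scale (adjusted p = 0.000409 and 0.000111, limma). Of the visceral markers 7 were called higher and Ttr lower, at -0.22 (adjusted p = 0.0299, limma), beside 30.2% and 28.7% of all genes. Against untreated cells all 5 parietal markers were called lower and all 8 visceral markers higher in both fractions. Of all genes 35.9% were called lower and 37.7% higher in GFP positive cells, and 36.2% and 38.5% in GFP negative cells. Of the 7 extraembryonic endoderm markers 5 were called lower and 1 higher in each fraction. Between the fractions 1 visceral marker, Afp, was called higher in GFP positive cells and 4 were called lower, beside 3.07% and 2.32% of all genes. The 4 were Cubn (-0.77), Lrp2 (-0.77), Amn (-0.49) and Apoe (-0.34, log2 scale), so the sort by Afp did not order the visceral markers alike. All 5 parietal markers were detected on every unsorted array, and Thbd was detected on no GFP negative array. Nid1 and Sparc stand in both the parietal and the partner list. Of other cell types, 2 of 5 endothelial markers (Cdh5 and Tek) were detected, with a summed signal over the list of 2086 to 2245 in untreated, 843 to 925 in BMP4, 601 to 640 in GFP positive and 474 to 490 in GFP negative samples, while Pecam1, Kdr and Emcn were detected on none. Of 5 trophoblast markers Cdx2 was detected in BMP4 unsorted cells and the other 4 on no array. Cdx2 had a log2 signal of 7.82 in those cells and was undetected in untreated cells. It was also undetected in both fractions, at 5.02 in GFP positive and 5.04 in GFP negative cells. Of 5 pluripotency markers Zfp42 was detected in every group. The part of these cell states in the values of the chain genes was not tested.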

How the data were processed

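Total RNA of 12 samples was labelled as biotin cRNA and hybridized to Illumina mouse whole-genome arrays. The scanner table that the authors deposited was exported from BeadStudio 3.4.0 with no normalization, per the file headers, and its signal columns are bead intensity means. Its detection columns are, in the deposited form, a fraction from which the detection p is obtained by subtraction from 1. A table of processed values, for which the submitters' processing notes name lumi, was not used here because its identifiers could not be matched to gene names.

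Background was estimated from the detection p and removed with limma 3.58.1 (R 4.3.3), an offset of 16 was added, and quantile normalization and the log2 transform followed. The filter kept 15448 of 45281 probes, those with 3 or more arrays at a detection p under 0.01. Each gene was read from its brightest kept probe, for 10597 genes. The limma model had 4 group means over 12 arrays (8 residual and 5.08 prior degrees of freedom), and calls needed an adjusted p (Benjamini-Hochberg over all genes) under 0.05. The code was tested on simulated data. The number of arrays limits the precision.

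For a group with no detected array, an "at least" fold used the lowest normalized signal of any detected probe as its level. Named genes were the 8 chain genes, up to 4 called genes with the largest difference from each list and comparison, Nid1, Col4a1, Dag1, Itgb1 and Itga6 whatever their value, and the 5 nearest profiles. The members and lists were chosen with earlier results of these data known. Of the lists, Bcam and B4gat1 were not analysed here, and Col18a1, Lamc3, Smoc2, Itga7, Sdc1 and Pomk were among those that did not pass the filter; some listed genes are not reported here. Alternatives covered background correction, offset, normalization, filters, probe choice, array weights, replicate numbers and each array left out.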

Additional observations from a re-analysis of the deposited data

How the results depend on the processing

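Of 485 gene values under alternatives, 472 kept their direction and side of the threshold, and of 190 counts, 184 stayed within 1.5 times. Signs turned for uncalled values near 0 and for 1 called value, Lamc1 in sorted against unsorted BMP4 cells. With single arrays left out, Lamb2 after BMP4 ranged from -0.20 to 0.072, and between the fractions Lama1 ranged from -0.033 to 0.024 and Lamc1 from -0.0019 to 0.091. Between the fractions Lamc1 was -0.063 under scale normalization, -0.015 as the mean of its probes, -0.068 by its other probe and -0.064 with the sorted arrays normalized alone (chosen after seeing the data). In sorted against unsorted BMP4 cells Lamc1 was -0.29 and became 0.015 by its other probe. Requiring an absolute log2 difference of at least 1 left 0 chain genes higher after BMP4, 2 lower in each fraction against untreated cells, and 1 higher and 0 lower in sorted against unsorted cells, since fewer genes can pass. With the sorted arrays normalized alone, 2 chain genes were higher in GFP positive cells. Correlations of same-numbered deviations ran from -0.05 to -0.01 after BMP4. Between the fractions they were 0.15, 0.13 and -0.01 for replicates 1, 2 and 3, against -0.20 to 0.08 for differently numbered arrays. Whether the fractions were paired cannot be settled from these values, and the main test used no pairing. With the replicate number as a block, 3 chain genes were lower and 2 higher after BMP4 and 1 higher between the fractions, and no chain gene changed its call. Leaving out each array in turn, 2 to 2 chain genes were higher and 3 to 3 lower after BMP4. Over all genes, 571 were called between the fractions (325 higher and 246 lower). Separate fits called 287 under scale normalization (139 higher and 148 lower), 289 without GFP positive replicate 1 and 918 with array weights. The slide as a block was not run, since the files name no slides, nor were the processed values.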
